A study of Mus musculus with 6 samples.

Results

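Antiviral genes stimulated by type I interferon were described through 43 mouse genes chosen by name, and all 43 were found by symbol among the 24628 genes of the deposited table. RNA-seq was done on 6 libraries of mouse lymphocytes, described in the series text as ILC1s, group 1 innate lymphoid cells that make interferon-γ and resemble natural killer (NK) cells. The 3 control libraries are titled Rorafl/fl and carry floxed alleles of Rora, which encodes the nuclear receptor RORα. The other 3 are titled treatment, their columns add the name Ncr1 to Rora, and they were taken as the conditional knockout (cKO) of the series text because no other group remained. Rora is thus named for both groups, and the titles give the floxed alleles for the controls alone. Ncr1, the gene of NKp46, is widely used to drive Cre recombinase in NK cells and ILC1s, but the labels name no driver. They also give no age, sort gate or number of animals, and do not say whether libraries are separate animals, so the p-values below may describe technical spread alone.

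Type I interferons bind the receptor IFNAR1-IFNAR2, whose kinases JAK1 and TYK2 activate STAT2 and the rest of the factor ISGF3, which binds the interferon-stimulated response element (ISRE) in the promoters of antiviral genes. The products sense viral RNA and DNA, block translation, degrade RNA, modify proteins with ISG15 or ADP-ribose, or hold virus at membranes. Many are also made at a low tonic level in resting lymphocytes, and many respond to interferon-γ as well.

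Promoter stretches are shown for 6 members because the ISRE is the sequence these genes are known for, and because the called members Ifit3 and Rsad2 can be read beside uncalled members. Mx1, the other called member, had no matched window. RefSeq promoter windows (GRCm38.p6, the assembly behind mm10) were matched to 32 of the 43 members. Each window runs from 250 bases before the transcript start to 50 after it. Only bases before the start are printed, 5′ to 3′ on the strand of the gene, and capitals mark the letters GAAANNGAAA on either strand, N being any base.
Ifit3, chr19:34583363-34583462, plus strand: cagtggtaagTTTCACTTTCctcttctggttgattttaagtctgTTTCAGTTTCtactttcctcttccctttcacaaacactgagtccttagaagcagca
Ifit1, chr19:34640775-34640874, plus strand: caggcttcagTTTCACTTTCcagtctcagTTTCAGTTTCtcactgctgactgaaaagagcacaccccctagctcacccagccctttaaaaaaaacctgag
Rsad2, chr12:26456483-26456582, minus strand: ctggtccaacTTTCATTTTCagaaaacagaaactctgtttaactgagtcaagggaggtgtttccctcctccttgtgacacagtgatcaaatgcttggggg
Cmpk2, chr12:26469115-26469214, plus strand: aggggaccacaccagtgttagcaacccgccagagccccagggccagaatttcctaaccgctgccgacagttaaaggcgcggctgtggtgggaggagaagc
Isg15, chr4:156200819-156200918, minus strand: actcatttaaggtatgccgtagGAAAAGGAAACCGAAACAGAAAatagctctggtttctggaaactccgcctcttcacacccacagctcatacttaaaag
Oas3, chr5:120777660-120777759, minus strand: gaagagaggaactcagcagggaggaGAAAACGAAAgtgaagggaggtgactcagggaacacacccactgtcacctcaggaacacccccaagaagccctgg

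Ifit3 and Ifit1 each held 2 matches, which began at -156 and -122 and at -104 and -85 from the start, the base before the start being -1. Rsad2 held 1 match at -120 and Oas3 held 1 at -75. Isg15 held 3, at -78, -72 and -66, of which only neighbouring ones overlap. Cmpk2, the neighbour of Rsad2, held none of these letters in its window. The stretch of Ifit3b, at chr19:34607759-34607858, was identical to that of Ifit3 in 100 of 100 bases. Of the 32 matched members, 15 (46.9%) held the letters in a window, against 1079 of 27025 RefSeq genes (3.99%). They were held by 9 of 17 matched members whose groups lay apart in the expression data and by 6 of 15 whose groups overlapped. A match of letters describes the window and shows no binding.

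Antiviral genes lay lower in the cKO libraries as a group, by small amounts, and 3 of them passed the test on their own. Expression is given in RPKM, the reads of a gene scaled by its length and the depth of the library. Each difference is the mean log2(RPKM + 1) of the cKO libraries less that of the floxed libraries, so a negative value means lower in cKO. Of the 43 members, 42 reached 1 RPKM in at least 3 of the 6 libraries and were tested. Among these 42, 40 (95.2%) had a negative difference, against 57.3% of all 12731 genes tested, and the median difference was -0.18, against -0.03 over all genes. In 24 members (57.1%) all 3 cKO values were below all 3 floxed values, which held for 12.7% of all genes, and in 0 members were they all above, against 7.61% of all genes. Ifit3, Rsad2 and Mx1 fell by limma's test, at a Benjamini-Hochberg adjusted p under 0.05 over all genes. That is 3 of 42 members (7.14%), against 0.668% of all genes called lower and 1.32% called in either direction. Limma called 0 members higher, against 0.652% of all genes; 0 were higher at an unadjusted p under 0.05 (5.55% of all genes) and 0 with voom (1.78%). At an unadjusted p under 0.05, 18 members (42.9%) lay lower, against 8.6% of all genes. Limma voom, run on reads recovered from the RPKM values, called 9 members lower (21.4%), against 2.41% of all genes. In bulk RNA, fewer cells of a type and less RNA per cell cannot be told apart.

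**Figure D1:**
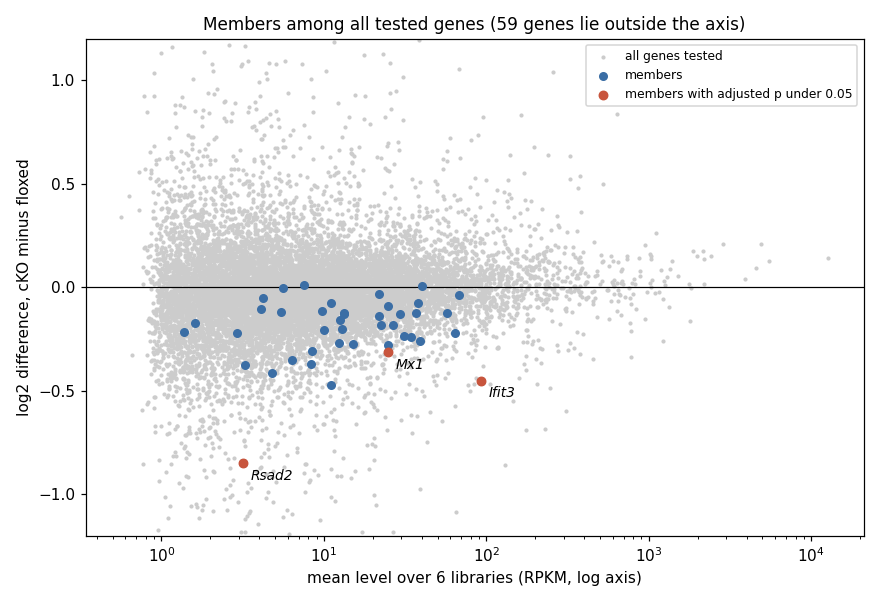
Log2 difference (cKO minus floxed) against mean level in RPKM (log axis) for all 12731 tested genes in grey and the 42 tested members in colour. Of the members, 40 lie below 0, and the 3 called ones (Ifit3, Mx1 and Rsad2) are in red; 59 genes lie outside the vertical axis.

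The summed RPKM of the 43 members was 959, 948 and 941 in the floxed libraries and 824, 825 and 823 in the cKO libraries. Of all reads, the members took 0.405 to 0.411% in the floxed group and 0.362 to 0.367% in the cKO group. Measured from the mean of the floxed libraries, the median tested member lay at -0.16, -0.18 and -0.20 in cKO replicates 1, 2 and 3 and between -0.00 and 0.01 in the floxed libraries. No single cKO library carried the shift, and 40, 35 and 38 of the 42 members were below the floxed mean in the 3 of them. The median gene lay between -0.03 and -0.02 in the same libraries. Of the tested members, 18 kept at least 90% of their floxed mean RPKM in the cKO group, 14 kept 80 to 90%, and 10 kept less than 80%.

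**Figure D2:**
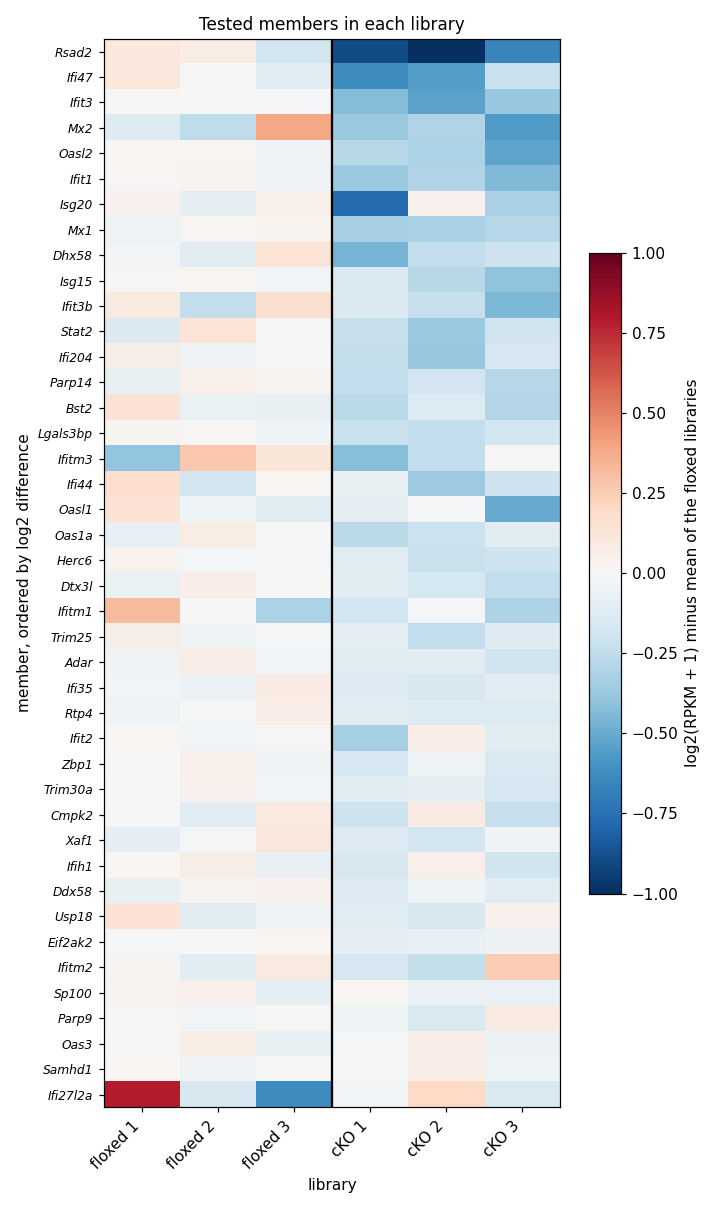
Each row is 1 of the 42 tested members and each column a library; colour gives log2(RPKM + 1) minus the mean of the 3 floxed libraries, with blue below it. Blue fills most of the 3 cKO columns, and Ifi27l2a, in the last row, varies most among the floxed libraries.

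The floxed and cKO libraries differed in other RNA at the same time. Xist fell from 31.9 ± 3.16 to 9.43 ± 0.394 RPKM (SD, n = 3 each) and Y-linked Ddx3y rose from 10.4 ± 0.498 to 20.8 ± 0.438 RPKM, both passing limma's test. This sex-linked difference and the genotype cannot be told apart in this design. Of 27 tested immediate-early and dissociation-response genes, limma called 19 higher (0.652% of all genes) and 0 lower (0.668% of all genes). At an unadjusted p under 0.05, 1 was lower (8.6% of all genes), and with voom 0 (2.41%). Rora was at 7.42 ± 0.493 and 6.07 ± 0.334 RPKM with groups apart (limma's adjusted p = 0.242, with voom 0.0242), a value over the whole gene that does not check a deletion. The libraries held 20152146 to 22440170 reads. The labelled cell type was checked on 11 ILC1 and NK markers, all of which passed the filter. Limma called Ncr1, Cxcr6 and Il18r1 lower (27.3%, against 0.668% of all genes) and Eomes and Gzma higher (18.2%, against 0.652%). Klrb1c (NK1.1) was at 103 ± 5.09 and 99.4 ± 4.01 RPKM. The 11 markers summed to 1231 to 1245 RPKM in the floxed group and 1119 to 1145 RPKM in the cKO group.

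Markers of other cell types were summed in each library. The macrophage and dendritic sums were lower in the cKO libraries, though single dendritic markers went both ways. The 12 macrophage and monocyte markers summed to between 52.2 and 60.4 RPKM in the floxed group and between 44.5 and 46.4 RPKM in the cKO group. All 6 tested ones had a negative difference (57.3% of all genes), with 0 called by limma (1.32% of all genes in either direction). At an unadjusted p under 0.05, 3 were lower (8.6% of all genes), and with voom 1 (2.41%). Adgre1, Cd14, Mertk, Fcgr1 and C1qa stayed under 1 RPKM in all 6 libraries. The 10 dendritic cell markers summed to 157.9 to 164.7 and 133.9 to 137.4 RPKM. Limma called Cd74 and H2-Ab1 lower (2 of 6 tested, against 0.668% of all genes), and Flt3, Clec9a and Cd209a stayed under 1 RPKM. This list was mixed: 3 of its 6 tested markers had a positive difference. At an unadjusted p under 0.05, 2 of them were higher (5.55% of all genes), and with voom 1 (1.78%). The 9 plasmacytoid dendritic cell markers, 1 of them the member Bst2, summed to 45.7 to 50.1 and 43.8 to 45.9 RPKM with 0 of 5 tested ones called by limma (1 lower and 1 higher at an unadjusted p under 0.05, 0 with voom), and Siglech, Ccr9, Klk1 and Spib stayed under 1 RPKM. B cell markers summed to 14.1 to 15.3 and 8.14 to 9.15 RPKM, with Ms4a1, Pax5 and Cd79a under 1 RPKM in every library. Of the 2 tested, limma called Cd22 lower (0.668% of all genes). The T cell sums were 63.3 to 67.0 and 57.7 to 63.6 RPKM, where limma called 1 of 7 tested markers lower, Cd3e (0.668% of all genes). Stromal and endothelial markers summed to 17.6 to 18.0 and 14.1 to 16.0 RPKM, with 8 of 9 under 1 RPKM everywhere, and the 6 neutrophil markers found of 8 listed to at most 2.07 RPKM. The table holds no gene at 0 in all 6 libraries, so a marker without reads could not appear in it. The part of these cell types, of the ILC1 and NK marker differences, of the sex-linked difference and of the immediate-early genes in the lower antiviral RNA was not tested.

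The IFIT genes, whose products bind viral RNA lacking the marks of the cell's own messages, held the most abundant member. Ifit3 (chromosome 19, 34583531 to 34588731, plus strand, mm10) was at 109, 107 and 107 RPKM in the floxed libraries and at 79.3, 74.0 and 82.4 RPKM in the cKO libraries. The groups lay far apart relative to their spread. Its mean fell from 108 ± 0.872 to 78.6 ± 4.27 RPKM (SD, n = 3), or to 73.0% of the floxed level, with a log2 difference of -0.45 (SE 0.05, 95% confidence interval -0.57 to -0.33, limma's adjusted p = 0.0110). The call was lost without floxed replicate 3 (adjusted p = 0.0606), without cKO replicate 1 (adjusted p = 0.0543) and without the mean-variance trend (adjusted p = 0.0605), and the 13 alternatives gave values from 7.97e-06 to 0.0606.

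Ifit1, which binds RNA with an incomplete cap, was at 9.62, 9.75 and 9.22 RPKM in floxed and 7.15, 7.54 and 6.76 RPKM in cKO libraries. Its groups did not overlap, its cKO mean was 75.0% of the floxed mean and its difference was -0.37 (SE 0.07), yet the adjusted p of 0.0697 missed the threshold. Ifit3b, at 16.7 ± 2.55 and 13.6 ± 1.57 RPKM, and Ifit2, at 13.9 ± 0.273 and 12.7 ± 1.86 RPKM, overlapped between groups. Ifit2 in cKO replicate 2, at 14.5 RPKM, was above all floxed values. Ifit3 and Ifit3b are near-identical: 51.2% of the 50-base words of Ifit3 transcripts also occur in transcripts of other genes, mostly Ifit3b, so the split of reads between them is uncertain. Their summed reads were 221 ± 5.43 in floxed and 164 ± 6.25 in cKO libraries when scaled by depth alone (RPM), or 74.3%.

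**Figure D3:**
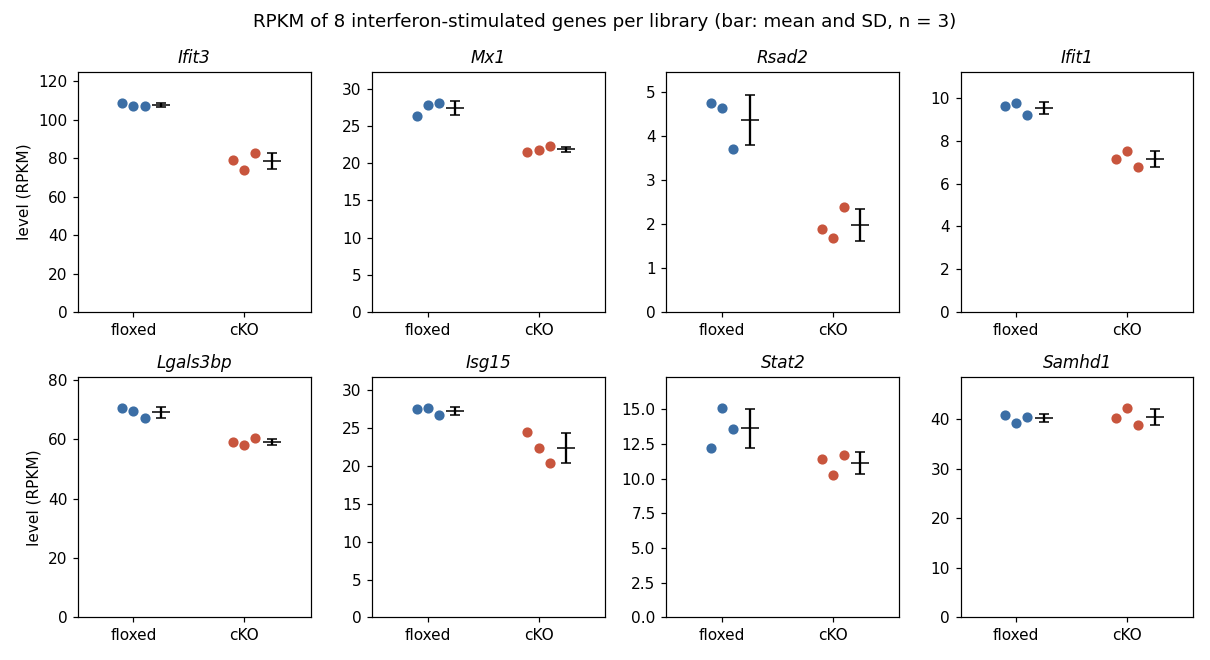
RPKM of 8 members in each library (points, 3 floxed in blue and 3 cKO in red) with the mean and SD beside them, on axes from 0. The groups are apart in Ifit3, Mx1, Rsad2, Ifit1, Lgals3bp, Isg15 and Stat2 and overlap in Samhd1.

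Rsad2 encodes viperin, an enzyme that makes a chain-terminating nucleotide against viral polymerases, and Cmpk2 next to it encodes a nucleotide kinase that supplies the substrate. Rsad2 (chromosome 12, 26442753 to 26456452, minus strand) was at 4.75, 4.64 and 3.72 RPKM in floxed and 1.88, 1.69 and 2.38 RPKM in cKO libraries. It rested on 154 to 446 reads per library. Its cKO mean was 45.4% of the floxed mean, the lowest share among the 42 tested members, and the difference was -0.85 (SE 0.13, 95% confidence interval -1.17 to -0.53, limma's adjusted p = 0.0419). The call was lost when any 1 library was left out (adjusted p 0.0705 to 0.141), with no filter on low values (0.121) and with no mean-variance trend (0.0599). It held with voom (adjusted p = 0.00018).

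Cmpk2 was at 5.69, 5.20 and 6.11 RPKM in floxed and 4.75, 6.04 and 4.66 RPKM in cKO libraries, which overlap. Its difference was -0.12 (95% confidence interval -0.39 to 0.15, adjusted p = 0.705). The ratio of Rsad2 to Cmpk2 RPKM, chosen after their values were seen, was 0.834, 0.893 and 0.608 in floxed and 0.397, 0.279 and 0.510 in cKO libraries. An exact permutation test of the log2 ratio, two-sided over 20 assignments, gave p = 0.1, the smallest this design allows. It was 1 of 3 ratios of neighbours computed, and the other two, Ifit3 to Ifit3b and Parp14 to Parp9, gave p = 0.5 and p = 0.2 by the same exact test. Since the pair was picked for its values, its p is a description.

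The Mx proteins are dynamin-like GTPases that trap viral nucleoproteins and block replication. Mx1 (chromosome 16, 97447035 to 97462907, minus strand) was at 26.4, 27.8 and 28.1 RPKM in floxed and 21.6, 21.7 and 22.3 RPKM in cKO libraries. All 3 cKO values were within 1 RPKM of each other and below every floxed value. The mean fell from 27.4 ± 0.920 to 21.9 ± 0.376 RPKM, with a difference of -0.31 (SE 0.05, 95% confidence interval -0.43 to -0.20, limma's adjusted p = 0.0412). Leaving out any 1 library ended the call (adjusted p 0.0847 to 0.162), as did median-ratio scaling (adjusted p = 0.0514), no filter on low values (0.0549) and no mean-variance trend (0.114). Mx2 was at 4.96, 4.49 and 7.52 RPKM in floxed and 4.04, 4.30 and 3.41 RPKM in cKO libraries (difference -0.41, adjusted p = 0.365). The floxed replicate 3 was well above the other libraries in Mx2.

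The OAS family includes enzymes that sense double-stranded RNA and activate RNase L. Of its 4 tested members, limma called 0 lower (0.668% of all genes) and voom 1 (2.41% of all genes). At an unadjusted p under 0.05, 2 were lower (8.6% of all genes). Oasl2 was at 3.87, 3.87 and 3.69 RPKM in floxed and 2.96, 2.87 and 2.33 RPKM in cKO libraries (difference -0.37, adjusted p = 0.186). Voom called it lower (adjusted p = 0.0345). Oas1a was at 13.1, 14.7 and 14.0 RPKM in floxed and 11.4, 11.8 and 12.8 RPKM in cKO libraries, also apart (difference -0.20, adjusted p = 0.290), and 57.6% of its 50-base words occur in other genes, mostly Oas1g. Oas3, whose promoter stretch holds 1 match, was at 5.61 ± 0.328 and 5.60 ± 0.280 RPKM and overlapped (difference -0.00, 95% confidence interval -0.19 to 0.19). Oasl1 was at 10.7 ± 1.04 and 9.25 ± 1.76 RPKM and overlapped. Oas2 stayed under 1 RPKM everywhere, with 0.279, 0.323 and 0.633 RPKM in floxed and 0.1, 0.255 and 0.143 RPKM in cKO libraries on 10 to 61 reads, and was not tested.

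ISG15 is a ubiquitin-like protein that is attached to other proteins, in mouse by the ligase HERC6, and removed by USP18, which also restrains the interferon receptor. Isg15 was at 27.5, 27.6 and 26.7 RPKM in floxed and 24.4, 22.3 and 20.4 RPKM in cKO libraries. The groups were apart (difference -0.28, SE 0.07), but the adjusted p was 0.159. Herc6 was at 24.3, 23.6 and 23.4 RPKM in floxed and 21.8, 20.3 and 20.5 RPKM in cKO libraries (difference -0.18, adjusted p = 0.199, with voom 0.0424). Of its exon bases, 13.7% are shared with the predicted gene Gm45193 on the same strand. Usp18 was at 11.4 ± 1.14 and 10.8 ± 0.882 RPKM and overlapped (difference -0.08, 95% confidence interval -0.30 to 0.14).

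Among nucleic acid sensors, all 5 members had a negative difference (57.3% of all genes) and 3 had groups apart (12.7% of all genes). Ifi204, a DNA-binding protein of the p200 family, was at 44.4, 41.7 and 42.1 RPKM in floxed and 36.0, 32.7 and 38.0 RPKM in cKO libraries (difference -0.26, adjusted p = 0.153, with voom 0.0144). Dhx58, which encodes the RNA sensor LGP2, was at 9.19, 8.66 and 10.5 RPKM in floxed and 6.55, 7.77 and 8.02 RPKM in cKO libraries (difference -0.31, adjusted p = 0.262). Both were lower in every cKO library. Zbp1, a sensor of Z-form nucleic acid, was at 38.7 ± 1.30 and 35.4 ± 1.55 RPKM, also apart. The genes of the RNA helicases RIG-I and MDA5 overlapped between groups: Ddx58 was at 25.7 ± 1.14 and 24.04 ± 0.711 RPKM and Ifih1 at 4.30 ± 0.251 and 3.95 ± 0.472 RPKM.

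The 4 enzyme genes Eif2ak2, Adar, Samhd1 and Isg20 had a median difference of -0.11. Eif2ak2, which encodes the kinase PKR, was at 38.5, 38.7 and 39.4 RPKM in floxed and 36.3, 36.8 and 37.3 RPKM in cKO libraries. These groups were apart by a narrow margin (difference -0.08, 95% confidence interval -0.17 to 0.02, adjusted p = 0.486). Adar, the editor of double-stranded RNA, was at 22.1, 23.8 and 22.3 RPKM in floxed and 21.04, 21.03 and 19.7 RPKM in cKO libraries (difference -0.14, adjusted p = 0.339). Samhd1, which depletes deoxynucleotides, was at 40.2 ± 0.847 and 40.5 ± 1.64 RPKM (difference 0.01, 95% confidence interval -0.11 to 0.12). The exonuclease gene Isg20 was at 7.20 ± 0.438 and 5.60 ± 1.81 RPKM, and its cKO values ran from 3.81 to 7.44 RPKM.

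Parp14, Dtx3l and Parp9 lie close together on chromosome 16 and encode ADP-ribosyltransferases and the ubiquitin ligase partner of PARP9. Parp14 was at 35.5, 38.9 and 38.2 RPKM in floxed and 31.5, 32.8 and 30.5 RPKM in cKO libraries (difference -0.24, SE 0.06, adjusted p = 0.127, with voom 0.00247). Dtx3l was at 27.1, 29.8 and 28.6 RPKM in floxed and 26.3, 25.0 and 23.8 RPKM in cKO libraries (difference -0.18, adjusted p = 0.262). Parp9, which shares 458 exon bases with Dtx3l on the opposite strand, was at 22.0 ± 0.377 and 21.5 ± 1.87 RPKM and overlapped (difference -0.03, 95% confidence interval -0.20 to 0.13). The log2 ratio of Parp14 to Parp9 differed by -0.21 between groups (exact permutation p = 0.2), so a difference between these neighbours was not shown.

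TRIM25 is a ubiquitin ligase known for its role in RIG-I signalling and TRIM30a a lymphoid TRIM protein of mice. Trim30a was at 58.7, 61.0 and 58.1 RPKM in floxed and 54.6, 55.7 and 52.8 RPKM in cKO libraries (difference -0.12, adjusted p = 0.290). Trim25 was at 13.9, 12.9 and 13.1 RPKM in floxed and 12.4, 11.04 and 12.1 RPKM in cKO libraries (difference -0.16, adjusted p = 0.360). Both had groups apart, with cKO means at 91.8% of the floxed mean for Trim30a and 88.9% for Trim25.

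Of the membrane proteins, tetherin (Bst2), which holds budding virus on the cell, was at 37.3, 32.1 and 31.8 RPKM in floxed and 27.7, 30.5 and 27.4 RPKM in cKO libraries (difference -0.23, adjusted p = 0.263). The IFITM genes, whose products block fusion of virus in endosomes, were low in these cells. Ifitm3 was at 2.17, 4.03 and 3.54 RPKM in floxed and 2.10, 2.52 and 3.21 RPKM in cKO libraries, which overlap. Ifitm2 was at 4.27 ± 0.370 and 4.13 ± 0.979 RPKM and Ifitm1 at 1.77 ± 0.610 and 1.43 ± 0.246 RPKM. The 3 IFITM genes rested on 28 to 76 reads per library. Groups were apart in 0 of them, against 12.7% of all genes on the lower side and 7.61% on the higher side. Their 95% confidence intervals ran from -0.63 to 0.28 for Ifitm1, -0.40 to 0.30 for Ifitm2 and -0.71 to 0.27 for Ifitm3. Ifitm2 also shares 40.9% of its exon bases with another gene model on the same strand.

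Stat2, the interferon-specific subunit of ISGF3, was at 12.2, 15.04 and 13.6 RPKM in floxed and 11.4, 10.2 and 11.7 RPKM in cKO libraries. The groups were apart (difference -0.27, SE 0.09), with an adjusted p of 0.273. Among the remaining members, Lgals3bp, which encodes a secreted galectin-binding glycoprotein, was at 70.4, 69.6 and 67.1 RPKM in floxed and 59.1, 58.0 and 60.3 RPKM in cKO libraries (difference -0.22, SE 0.04, adjusted p = 0.0699, with voom 0.0152). It was the third most abundant member and narrowly missed the threshold. Ifi47, an immunity-related GTPase that interferon-γ also induces strongly, was at 13.9, 13.0 and 11.9 RPKM in floxed and 8.05, 8.45 and 10.9 RPKM in cKO libraries (difference -0.47, SE 0.12, adjusted p = 0.156, with voom 0.0178). Its cKO mean was 70.5% of the floxed mean.

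Sp100, a nuclear body protein, was at 70.1, 70.7 and 64.2 RPKM in floxed and 69.3, 65.6 and 65.1 RPKM in cKO libraries, with no visible separation (difference -0.03, 95% confidence interval -0.16 to 0.09). Ifi35 was at 30.6 ± 1.66 and 27.9 ± 0.594 RPKM and Rtp4 at 14.0 ± 0.635 and 12.7 ± 0.116 RPKM, both apart. Xaf1, whose product antagonises the apoptosis inhibitor XIAP, was at 10.2 ± 0.843 and 9.29 ± 0.566 RPKM, and Ifi44 at 1.55 ± 0.309 and 1.19 ± 0.218 RPKM, both overlapping. Ifi27l2a was at 13.0, 6.32 and 4.29 RPKM in floxed and 7.03, 8.39 and 6.36 RPKM in cKO libraries. Its floxed coefficient of variation of 58.0% was the highest of the members, on 43 to 131 reads, and its interval ran from -0.79 to 0.81.

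**Figure D4:**
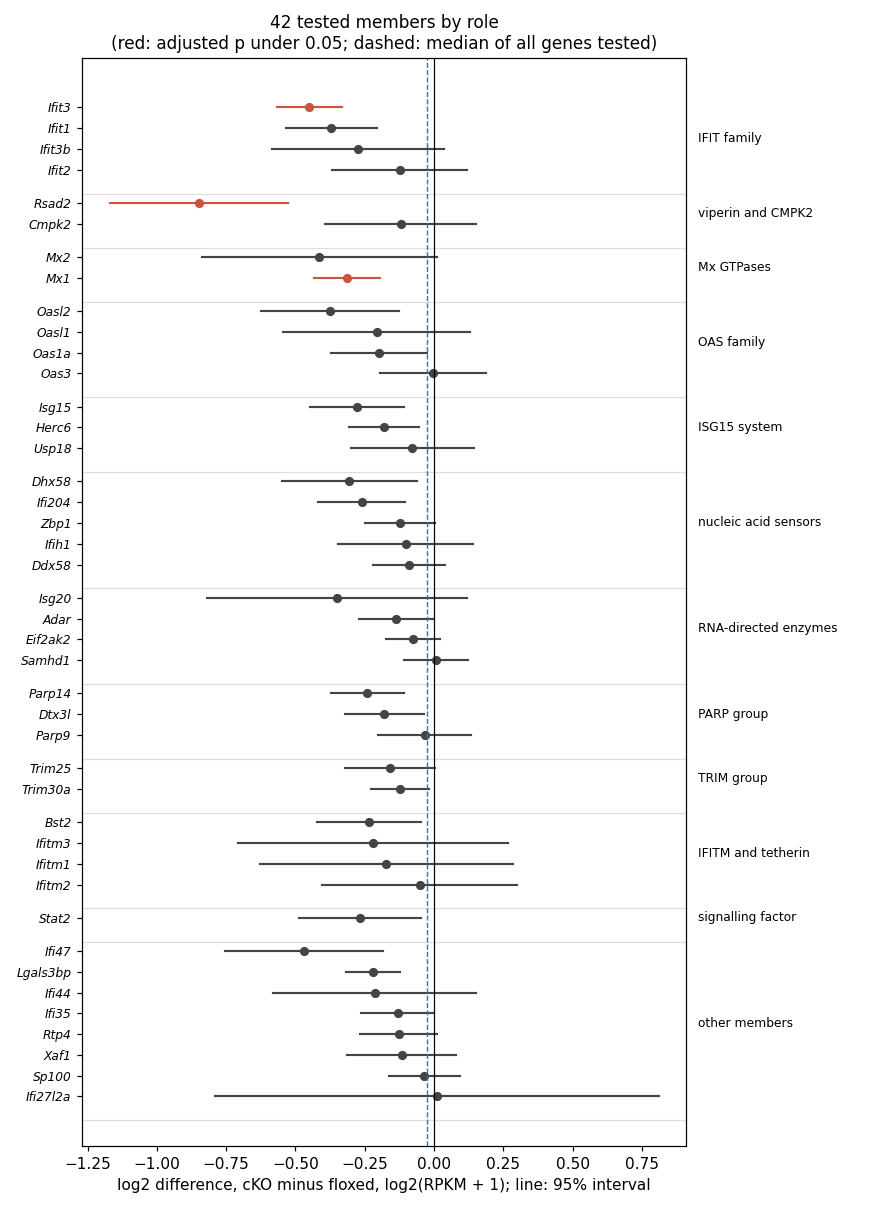
Log2 difference (cKO minus floxed, log2(RPKM + 1) scale) of the 42 tested members by role, with 95% confidence intervals from limma; the dashed line is the median of all 12731 genes tested. Ifit3, Rsad2 and Mx1 (red) passed, and the points of Samhd1 and Ifi27l2a lie above 0.

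The genes upstream of the members did not move as one. For the counts below, limma called 0.668% of all genes lower and 0.652% higher. At an unadjusted p under 0.05 these shares were 8.6% and 5.55%, and with voom 2.41% and 1.78%. Of 10 listed interferon ligands, the table holds Ifng, at 59.6 ± 3.96 and 68.2 ± 1.12 RPKM (adjusted p = 0.200), and Ifnk, under 1 RPKM in all libraries. Among receptors, 0 of 4 tested genes passed limma's test (1 lower, Ifngr1, at an unadjusted p under 0.05 and with voom): Ifnar1 was at 16.5 ± 0.971 and 16.4 ± 0.372 RPKM, Ifnar2 at 26.4 ± 2.31 and 23.8 ± 0.158 RPKM, and Ifngr1 at 194 ± 8.81 and 162 ± 3.24 RPKM (adjusted p = 0.0551). The last of these had groups apart.

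Among signal transducers beside Stat2, the receptor kinase gene Jak1 rose from 177 ± 1.96 to 216 ± 2.98 RPKM (difference 0.28, limma's adjusted p = 0.0164). Irf9 was at 19.2 ± 0.651 and 17.7 ± 1.16 RPKM and Tyk2 at 19.0 ± 1.503 and 18.7 ± 0.440 RPKM, both overlapping. Of the 5 tested transducers, 4 had a negative difference, against 57.3% of all genes. At an unadjusted p under 0.05, 1 was lower and 1 higher, and voom also called 1 lower and 1 higher. Groups were apart on the lower side in 1 (12.7% of all genes), a gene not named here. Of 6 interferon regulatory factors 0 passed limma's test (1 lower and 1 higher at an unadjusted p under 0.05, 1 higher with voom), and 3 lay on each side of 0: Irf7 was at 41.2 ± 3.54 and 35.5 ± 1.80 RPKM and Irf1 at 64.8 ± 1.30 and 74.4 ± 0.580 RPKM. Among 6 feedback inhibitors Socs3, which is also an immediate-early gene, rose from 70.0 ± 3.37 to 101 ± 2.70 RPKM (limma's adjusted p = 0.00606), while Socs1 was at 4.95 ± 1.21 and 5.43 ± 1.12 RPKM (adjusted p = 0.843). Of 8 tested sensing adaptors and kinases 0 passed limma's test (1 lower at an unadjusted p under 0.05, 0 with voom), Tmem173 (STING) being at 22.4 ± 1.78 and 23.0 ± 1.67 RPKM.

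Paralogs and partners of the members also lay mostly below 0. This list was chosen with earlier results of these data known. Some of its genes share sequence with members, so it is not independent of them. Of 41 tested genes, 35 (85.4%) had a negative difference, against 57.3% of all genes, and the median was -0.10. Groups were apart on the lower side in 13 (31.7%, against 12.7% of all genes) and on the higher side in 1 (2.44%, against 7.61%). Limma called 1 lower (2.44%, against 0.668%) and 0 higher (against 0.652%). At an unadjusted p under 0.05, 9 were lower (22.0%, against 8.6% of all genes) and 0 higher (against 5.55%). Voom called 6 lower (14.6%, against 2.41%) and 0 higher (against 1.78%). The called gene was Ifi209, a p200-family relative of Ifi204, which fell from 94.6 ± 0.383 to 76.6 ± 1.43 RPKM (difference -0.30, limma's adjusted p = 0.0169). Mndal, of the same family and the most abundant gene of this list, was at 303 ± 17.5 and 267 ± 7.23 RPKM (difference -0.18, adjusted p = 0.199). Shisa5 was at 98.7 and 93.8 RPKM on average (adjusted p = 0.587). Of the 50-base words of Ifi204, 20% occur in other genes, mostly Mndal, so the split of reads among these relatives is uncertain.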

How the data were processed

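The authors deposited RPKM per gene and library, with exon coordinates and gene lengths, per the file headers; the submitters' processing notes name build mm10 and the tools featureCounts with Subread 1.5.1, STAR 2.5.3a and edgeR 3.12.1. The annotation and the handling of strand and duplicates were not given in the sources used here. RNA was taken up in TRIzol and made into stranded mRNA libraries, per the labels' protocols. RPKM times gene length fell on whole multiples of 1 step per library for 100% of values (within 0.001 reads), which gave the reads and the depth of 20152146 to 22440170 per library. Other measurements per gene in the deposited table, such as gene length in bases, are the authors' own. No pair of libraries shared values. Chi-square per gene at 20 to 100 summed reads was 4.96 to 5.47 within groups and 5.31 to 5.95 between them. Xist was at 9.09 RPKM or more and Ddx3y at 10.0 RPKM or more in every library. Xist and Y-linked Ddx3y were thus found together in every library, as in a pool of female and male animals. Each library was counted as 1 replicate, but these values cannot show whether libraries share animals.

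The test was limma 3.58.1 in R 4.3.3 (lmFit, eBayes with trend) on log2(RPKM + 1), a scale that understates changes of low genes. A gene entered if 3 or more libraries reached 1 RPKM (12731 genes). The test was two-sided, with Benjamini-Hochberg adjustment over all of them. On data simulated for this comparison over 12731 genes, 57% of 100 genes changed by 0.5 and 87% of 100 changed by 1 (log2) were called. The changed genes were drawn from those with a mean log2(RPKM + 1) above 2. Changes smaller than 0.5 were not simulated, while the median member difference was -0.18. The members, lists, alternatives and naming rule were chosen with earlier results of these data known. All members may be named; values per library are given for called members, the 4 most abundant and at most 2 per role by smallest p, and for Oas2 and Ifi27l2a, added after their values were seen. From other lists, called genes and at most 2 others by level were to be named; genes of the receptor and ISGF3 chain beyond that were added after their values were seen. Transcript words were compared in GENCODE M21. Some genes of the lists are not reported here.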

Additional observations from a re-analysis of the deposited data

How the results depend on the processing

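The negative median and the absence of members called higher held in the 13 alternatives run; 32 of 34 tested members were negative with a filter at a mean of 5 RPKM, and 38 to 41 of those tested in the others. The count of members called lower, 3, was less stable: it was 1 with no filter on low values, 0 with no mean-variance trend, 9 with voom on recovered reads, and 0 to 1 when 1 library was left out. The median member difference was -0.20 with a pseudocount of 0.1, -0.15 with median-ratio scaling, -0.20 with voom, and -0.20 to -0.16 without 1 library. Among all genes, 36 were called lower and 44 higher with no filter, 35 and 39 with no trend, 307 and 226 with voom, and 27 to 39 and 33 to 51 without 1 library. The causes were not tested. The titles of both groups carry the numbers 1 to 3. Deviations of same-numbered libraries correlated at -0.03, 0.01 and 0.04 over genes, so the numbers were not taken as pairs. With a replicate block, 23 genes were called lower and 37 higher, and 0 members (Ifit3 adjusted p = 0.0586).

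Members near 0 changed sign. Oas3 was at 0.023 with median-ratio scaling and at -0.039 to 0.032 without 1 library (positive without floxed replicate 2 or cKO replicate 1 or 3). Leaving out 1 library moved Samhd1 to -0.022 to 0.035 (negative without floxed or cKO replicate 2), Parp9 to -0.095 to 0.025 (positive without cKO replicate 2), Ifitm2 to -0.20 to 0.040 (positive without cKO replicate 1 or 2) and Ifi27l2a to -0.30 to 0.40 (negative without floxed replicate 2 or 3 or cKO replicate 2). Depth limits Oas2, the IFITM genes and Ifi27l2a, with at most 131 reads in any library.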
